A study of Mus musculus with 12 samples.

Results

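Integrins are the receptors through which cells hold on to extracellular matrix, and laminins are the trimeric glycoproteins that form the core of the basement membrane. The transcripts of both families were followed here from mouse embryonic stem cells (ESCs) into 2 sorted fractions of day 3 differentiating cells. A locus of the assembled transcriptome was taken when a transcript in it matched an annotated gene named as an integrin alpha or beta subunit or as a laminin alpha, beta or gamma chain. This gave 37 loci of the 80012 counted, with 18 integrin alpha subunits, 8 integrin beta subunits and 11 laminin chains. Of these, 31 passed the filter on low values (a mean above 0.1 FPKM in at least 1 group, FPKM being counts scaled to the library and to the kilobases of exon) and entered the tests. Itga2, Itgad, Itgax, Itgb6, Lama2 and Lamc3 did not pass it.

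All cells came from 1 mouse ESC line of C57BL/6 background, in which an EGFP reporter sits at the start site of Eomes, so that every group shared the modified locus. The ESC group was grown on mouse embryonic fibroblast feeders and collected at day 0. The Eo- and Eo+ groups were the EGFP-negative and EGFP-positive cells sorted at day 3 from embryoid bodies, which are aggregates of differentiating ESCs made in hanging drops. Each group had 4 poly(A) RNA libraries, numbered 1, 2, 5 and 6, and values by library are given below in that order. No other line or clone was compared, so the p-values measure the spread among these samples of 1 line.

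As background, an integrin is a pair of 1 alpha and 1 beta subunit, and the pair sets the ligand. The beta1 subunit joins most alpha subunits, the alpha5beta1, alpha8beta1 and alphav pairs read the RGD motif of fibronectin and related proteins, and the alpha3, alpha6 and alpha7 pairs read laminin. A laminin is built of 1 alpha, 1 beta and 1 gamma chain, of which the alpha chain carries the main sites for integrins. Laminins with the alpha1 and alpha5 chains are the first of the embryo, and cells that leave the epiblast at the primitive streak cross a basement membrane and move on fibronectin.

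The libraries held 648413022 to 837308168 counts in loci, so that 3 counts, taken as the floor of detection, stood for 0.00354 to 0.00467 CPM, the count scaled to the effective library size. Eomes itself measured 36.5 to 57.2 CPM in ESC, 116 to 168 CPM in Eo- and 446 to 641 CPM in Eo+ libraries, and these ranges did not overlap. The summed level of 10 mesendoderm genes was 114 to 359 CPM in ESC, 332 to 641 CPM in Eo- and 2153 to 3522 CPM in Eo+, and that of 7 pluripotency genes was 2659 to 3565, 1149 to 1507 and 440 to 765 CPM. The 10 fibroblast genes summed to 98.8 to 238 CPM in ESC, against 30.0 to 40.0 CPM in Eo- and 28.9 to 42.8 CPM in Eo+. In such bulk RNA, fewer cells of a type and less RNA per cell cannot be told apart.

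The start regions of the members are given for 4 of the genes that follow. RefSeq promoter windows (GRCm38.p6, the 250 bases before an annotated start) were at hand for 23 of the 37 members. They were searched on both strands for 3 runs of letters, the T-box core GGTGTGA, because Eomes is a T-box factor, the GC box GGGCGG and the TATA box TATAAA. The T-box core stood in 1 of the 26 member windows, that of Itga4, and in 3.33% of all 32851 windows. The GC box stood in 9 member windows and in 32.7% of all windows, and the TATA box in 0 member windows and in 12.4% of all. A match describes letters and not binding, and the absence of one says only that these letters were not in this window. Itga8 and Itga5 are shown because their transcripts were higher in Eo+ than in both other groups, Itgb7 because its transcript fell most among the beta subunits, and Itga4 for its match. Capitals mark the matches, and each window runs 5′ to 3′ along its gene. The windows are chr2:12301945-12302194 (minus strand) for Itga8, chr15:103366792-103367041 (minus strand) for Itga5, chr2:79255176-79255425 (plus strand) for Itga4 and chr15:102231936-102232185 (minus strand) for Itgb7.
Itga8: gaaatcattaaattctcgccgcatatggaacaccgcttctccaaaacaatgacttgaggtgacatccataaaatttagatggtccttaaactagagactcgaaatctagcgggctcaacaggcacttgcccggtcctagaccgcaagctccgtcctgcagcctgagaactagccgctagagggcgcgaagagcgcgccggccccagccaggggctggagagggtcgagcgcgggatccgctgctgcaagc
Itga5: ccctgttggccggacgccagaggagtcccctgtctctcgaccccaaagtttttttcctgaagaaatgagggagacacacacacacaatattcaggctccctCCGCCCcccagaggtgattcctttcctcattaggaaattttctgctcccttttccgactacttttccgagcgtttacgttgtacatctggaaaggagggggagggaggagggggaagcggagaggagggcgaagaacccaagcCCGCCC
Itga4: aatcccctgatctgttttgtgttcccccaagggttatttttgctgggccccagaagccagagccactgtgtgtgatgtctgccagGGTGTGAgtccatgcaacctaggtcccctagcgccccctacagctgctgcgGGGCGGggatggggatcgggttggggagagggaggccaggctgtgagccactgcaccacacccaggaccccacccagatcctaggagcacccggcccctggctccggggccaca
Itgb7: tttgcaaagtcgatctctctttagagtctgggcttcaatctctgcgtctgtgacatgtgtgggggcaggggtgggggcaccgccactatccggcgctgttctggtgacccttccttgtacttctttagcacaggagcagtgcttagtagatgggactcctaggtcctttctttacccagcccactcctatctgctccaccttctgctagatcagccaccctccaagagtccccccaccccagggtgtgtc

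Measured against ESC, more members fell than rose in either day 3 fraction. In Eo+ against ESC, 24 of the 31 tested members passed the test (limma on voom-weighted counts, adjusted p at most 0.05), 9 of them higher and 15 lower. That is 77.4% of the tested members, beside 71.9% of all 17911 loci tested, with 29% higher and 48.4% lower beside 35.8% and 36.1% of all loci. In Eo- against ESC, 17 members passed, 3 higher and 14 lower. These are 54.8%, 9.68% and 45.2% of the tested members, beside 62.2%, 30.9% and 31.3% of all loci. In Eo+ against Eo-, 19 members passed, 9 higher and 10 lower, or 61.3%, 29% and 32.3% beside 47.7%, 23% and 24.7% of all loci. The replicate numbers paired these fractions. With the number as a block in the day 3 libraries alone, 21 of the 31 passed, 9 higher and 12 lower, beside 58% of all loci.

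Changes of at least 2-fold (a log2 fold change of at least 1 in size) were found in 18 members for Eo+ against ESC (58.1%, beside 38.1% of all loci), in 11 for Eo- against ESC (35.5%, beside 28.3%) and in 12 for Eo+ against Eo- (38.7%, beside 21.1%). The median log2 fold change of the tested members was -0.37, -0.45 and -0.18 in these 3 comparisons, beside 0.07, 0.04 and 0.03 over the 14216 protein-coding genes. These counts and medians describe the 31 members only. Itga11, Itgb2 and Itga4 passed the filter through 1 group alone and so had to differ to be tested. Itgal, Itgam, Itgae and Lama3 passed it through ESC and Eo- but not Eo+, which fixed in advance a lower mean FPKM in Eo+. Both comparisons with ESC share the same 4 ESC libraries, and their values are set side by side below without a measure of likeness.

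**Figure D1:**
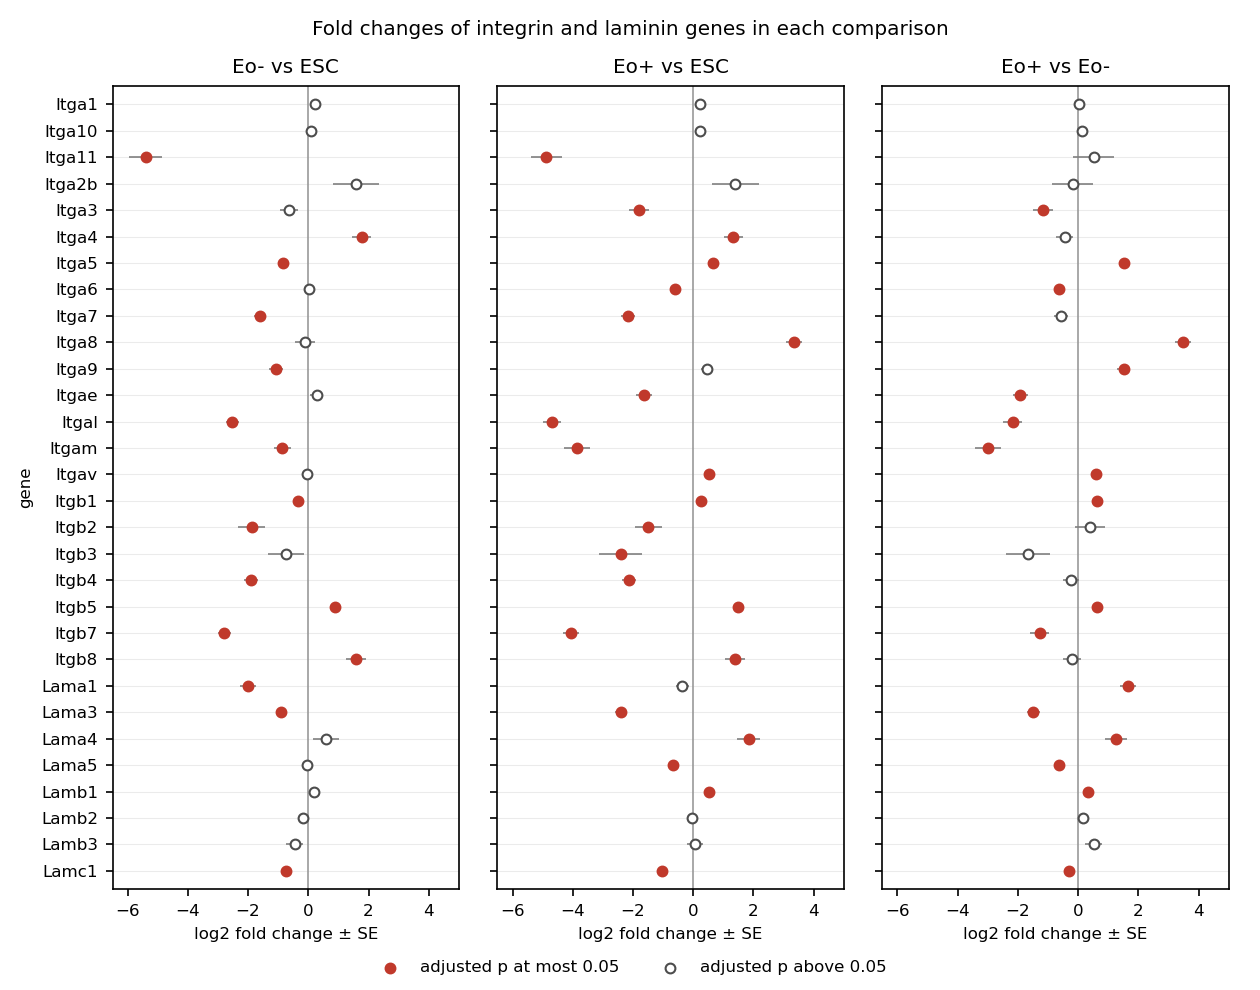
Log2 fold changes with standard errors for tested integrin and laminin genes in Eo- against ESC, Eo+ against ESC and Eo+ against Eo-, from limma on 4 libraries per group. Filled points passed an adjusted p of 0.05; Itga8 lies at 3.36 and 3.47 in both comparisons of Eo+, and Itgb7, Itgal and Lama3 lie below 0 in every panel.

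The fibronectin receptor subunit Itga5 had the highest mean FPKM of the integrin alpha transcripts in every group and moved in opposite directions in the 2 fractions. It measured 68.0, 85.7, 87.9 and 64.2 CPM in the ESC libraries, 49.9, 44.3, 32.5 and 43.1 CPM in Eo-, and 116, 135, 91.9 and 145 CPM in Eo+. No library of one group reached the range of another. Against ESC, Itga5 changed by 0.67 ± 0.15 (log2 fold change ± SE, as in all values of this form below) in Eo+ (adjusted p = 0.00146) and by -0.85 ± 0.16 in Eo- (adjusted p = 0.000518). Between the fractions the difference was 1.52 ± 0.16 (adjusted p = 8.08e-06).

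Itga8, whose product pairs with the beta1 subunit and reads RGD in matrix ligands such as nephronectin, was the member with the largest rise. It stood at 1.79, 1.62, 1.87 and 1.06 CPM in ESC and at 1.79, 1.56, 1.19 and 1.29 CPM in Eo-, and at 13.5, 23.5, 11.9 and 17.4 CPM in Eo+. Every Eo+ library lay above every other library. The log2 fold change was 3.36 ± 0.27 against ESC (adjusted p = 8.95e-08) and 3.47 ± 0.27 against Eo- (adjusted p = 6.65e-07). ESC and Eo- differed by -0.11 ± 0.33 (adjusted p = 0.78), with overlapping libraries. Its locus spans chr2:12106632-12301931 of mm10 on the minus strand.

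Itgav, the alpha subunit of several RGD receptors, averaged 19.4 ± 4.53 CPM (SD, n = 4) in ESC, 18.5 ± 2.92 CPM in Eo- and 27.8 ± 3.66 CPM in Eo+. It rose in Eo+ by 0.54 ± 0.16 on the log2 scale against ESC (adjusted p = 0.00733) and by 0.59 ± 0.16 against Eo- (adjusted p = 0.00706), with every Eo+ library above every other library. Thus 3 of the 4 alpha subunits of the RGD group were higher in Eo+ than in ESC and than in Eo-, beside 35.8% and 23% of all loci. The fourth, Itga2b, did not pass in any comparison and is described with its partner Itgb3 below.

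Itga9 and Itga4, the closely related alpha subunits that bind tenascin, osteopontin and VCAM-1, followed different courses. Itga9 measured 21.5, 18.1, 14.5 and 13.7 CPM in ESC, 9.94, 7.99, 7.20 and 7.22 CPM in Eo-, and 33.9, 17.2, 19.1 and 24.5 CPM in Eo+. Eo- lay wholly below both other groups, which overlapped. It fell in Eo- against ESC by 1.06 on the log2 scale (SE 0.23, adjusted p = 0.00142) and was higher in Eo+ than in Eo- by 1.51 ± 0.23 (adjusted p = 0.000128). Eo+ against ESC gave 0.45 ± 0.20 (adjusted p = 0.0603), and 5 of 21 alternatives called this rise (adjusted p 0.00566 to 0.207), among them those without ESC replicate 1 (0.57), Eo+ replicate 2 (0.59) or Eo+ replicate 5 (0.53).

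Itga4 was scarce in ESC, at 0.882, 0.301, 0.514 and 0.413 CPM, and stood at 2.36, 1.21, 1.71 and 1.59 CPM in Eo- and 1.28, 1.13, 1.64 and 0.962 CPM in Eo+. Both fractions lay wholly above ESC and overlapped each other. The rise was 1.77 ± 0.31 in Eo- (adjusted p = 0.00022) and 1.33 ± 0.32 in Eo+ (adjusted p = 0.00189), and the fractions differed by -0.44 ± 0.27 (adjusted p = 0.199). Its promoter window above is the only one of the 26 with the T-box core letters. That is 3.85% of the member windows, near the 3.33% of all windows.

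**Figure D2:**
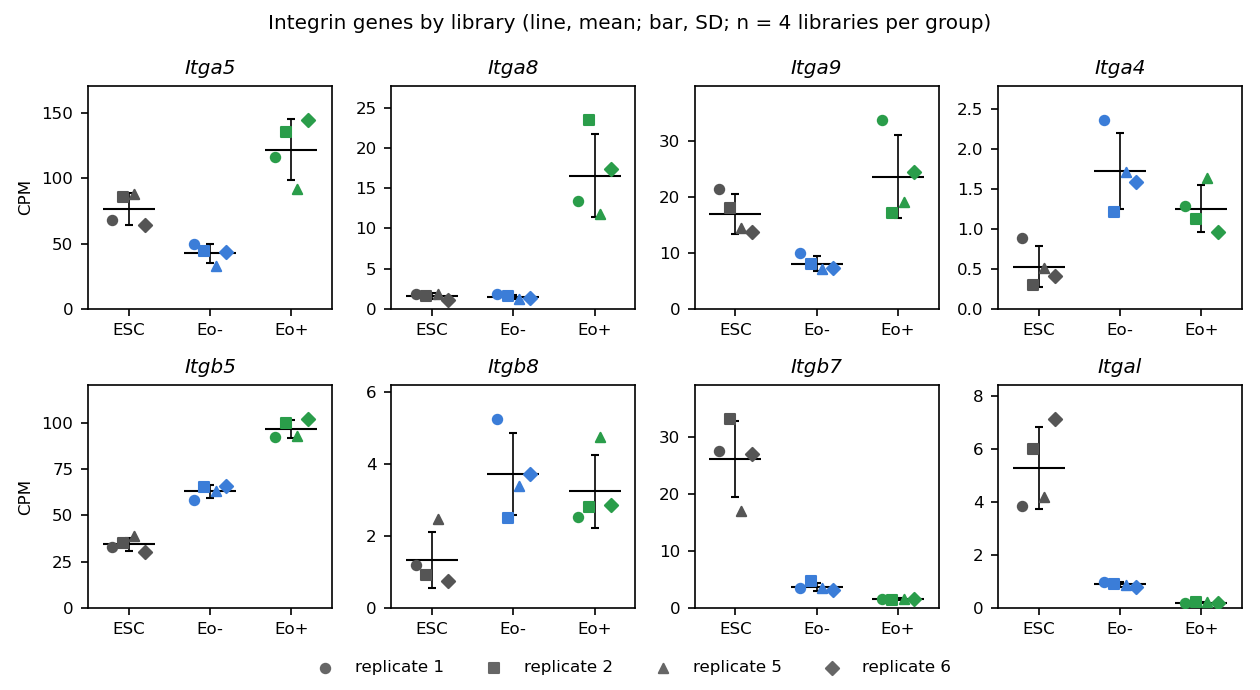
CPM of 8 integrin genes in each of the 12 libraries, on axes that start at 0, with the mean (line) and SD (bar) of the 4 libraries in a group and a marker shape for each replicate number. Itga5, Itga8 and Itgb5 are highest in all 4 Eo+ libraries, Itga4 and Itgb8 are lowest in ESC, and Itgb7 and Itgal are lowest in Eo+.

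The 3 laminin-reading alpha subunits tested, Itga3, Itga6 and Itga7, were lower in Eo+ than in ESC, and Itga3 and Itga6 were also lower in Eo+ than in Eo-, beside 36.1% and 24.7% of all loci. Itga3 measured 38.0, 93.8, 80.3 and 69.2 CPM in ESC, 28.9, 55.3, 36.5 and 58.8 CPM in Eo-, and 12, 19.8, 29.8 and 19.3 CPM in Eo+. The Eo+ libraries lay below all ESC libraries, while the highest of them was above the lowest Eo- library. The log2 fold change was -1.80 ± 0.34 in Eo+ against ESC (adjusted p = 0.000262), -1.17 ± 0.34 against Eo- (adjusted p = 0.0127) and -0.63 ± 0.29 in Eo- against ESC (adjusted p = 0.0776). Without ESC replicate 1, the lowest of its group, Eo- against ESC gave -0.91 (adjusted p = 0.00783). DESeq2 and a fit with the replicate number as a block also called Itga3 in Eo- against ESC.

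Itga6 averaged 68.6 ± 7.47 CPM in ESC, 70.2 ± 6.58 CPM in Eo- and 45.6 ± 9.93 CPM in Eo+ (SD, n = 4). It changed by -0.61 ± 0.13 in Eo+ against ESC (adjusted p = 0.000938) and by -0.64 ± 0.13 against Eo- (adjusted p = 0.00132), with Eo+ wholly below Eo- and overlapping ESC. Itga7, a muscle laminin receptor in the adult, measured 3.54, 2.48, 3.35 and 2.45 CPM in ESC, 0.796, 1.07, 0.967 and 1.05 CPM in Eo-, and 0.464, 0.784, 0.873 and 0.571 CPM in Eo+. Both fractions lay wholly below ESC, by 1.60 ± 0.21 in Eo- (adjusted p = 1.69e-05) and 2.16 ± 0.22 in Eo+ (adjusted p = 9.13e-07) on the log2 scale. Between the fractions the value was -0.56 ± 0.24 (adjusted p = 0.0684). Without Eo+ replicate 5 it was -0.70 (adjusted p = 0.0349), and with the replicate number as a block in the 8 day 3 libraries it was -0.55 ± 0.18 (adjusted p = 0.0357).

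Itgb4, the partner of alpha6 in the hemidesmosome, fell in both fractions. It measured 6.70, 7.99, 5.07 and 7.51 CPM in ESC, 1.93, 2.03, 1.49 and 1.76 CPM in Eo-, and 2.04, 1.17, 2.05 and 1.07 CPM in Eo+. The change was -1.90 ± 0.22 in Eo- (adjusted p = 5.71e-06) and -2.14 ± 0.22 in Eo+ (adjusted p = 1.24e-06), with no overlap of either fraction with ESC. The fractions overlapped and differed by -0.24 ± 0.25 (adjusted p = 0.461).

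Of the collagen receptors, Itga11 was the only one of the 3 tested that passed, and it was highest in ESC. The share of tested collagen receptors called lower than in ESC was thus 33.3% in Eo+ and in Eo-, beside 36.1% and 31.3% of all loci. Itga11 passed the filter through ESC alone, which fixed in advance that its mean FPKM was highest there. It measured 6.39, 2.12, 2.66 and 1.79 CPM in ESC, 0.0850, 0.0694, 0.0593 and 0.0586 CPM in Eo-, and 0.106, 0.0841, 0.0914 and 0.109 CPM in Eo+. The log2 fold change was -5.40 ± 0.54 in Eo- (adjusted p = 2e-06) and -4.88 ± 0.51 in Eo+ (adjusted p = 1.31e-06) against ESC. Alpha11 is a collagen receptor of fibroblasts, and most fibroblast genes moved with it. Of the 8 tested, 7 were lower in Eo+ than in ESC (Pdgfrb was higher) and 6 were lower in Eo- (Thy1 was higher), beside 36.1% and 31.3% of all loci. Among them Col1a1 measured 93.0, 52.7, 77.7 and 31.8 CPM in the ESC libraries and at most 4.92 CPM in the others, with replicate 1 the highest and replicate 6 the lowest ESC library for both genes. The part of the feeder layer in the ESC value of Itga11 was not tested. Itga1 (37.0, 42.9 and 44.0 CPM on average in ESC, Eo- and Eo+) and Itga10 (21.9, 23.3 and 25.8 CPM) passed in no comparison (without Eo+ replicate 5, Itga1 passed in Eo+ against ESC at an adjusted p of 0.0467, and Itga10, at 0.0229, in Eo+ against Eo-, while 4 of 21 alternatives called Itga10 in Eo+ against ESC, with an adjusted p down to 0.00223), but the assembly had joined each of them with another gene, so that their values are uncertain.

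The tested alpha subunits best known from leukocytes were present at low levels in ESC and were lower in Eo+. Itgal, Itgam and Itgae, the alpha subunits tested of this group, were all lower in Eo+ than in ESC and than in Eo-, beside 36.1% and 24.7% of all loci. Each passed the filter through ESC and Eo- but not Eo+, so a lower mean FPKM in Eo+ was fixed by the filter. The shares of all loci are therefore no measure for this group. Itgal, the alpha subunit of LFA-1, measured 3.83, 6.02, 4.18 and 7.13 CPM in ESC, 0.995, 0.897, 0.854 and 0.796 CPM in Eo-, and 0.191, 0.207, 0.221 and 0.168 CPM in Eo+. The 3 groups did not overlap, with log2 fold changes of -2.52 ± 0.22 in Eo- against ESC (adjusted p = 5e-07), -4.69 ± 0.29 in Eo+ against ESC (adjusted p = 9.78e-09) and -2.17 ± 0.32 in Eo+ against Eo- (adjusted p = 9.98e-05).

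Itgam, the alpha subunit of the complement receptor of myeloid cells, measured 1.74, 1.62, 1.07 and 2.58 CPM in ESC, 0.914, 0.916, 0.912 and 0.929 CPM in Eo-, and 0.0408, 0.131, 0.197 and 0.173 CPM in Eo+. Again no 2 groups overlapped. Eo+ differed from ESC by -3.86 ± 0.42 (adjusted p = 1.86e-06) and from Eo- by -3.00 ± 0.43 (adjusted p = 9.02e-05), and Eo- from ESC by -0.86 ± 0.29 (adjusted p = 0.0212), a call lost without ESC replicate 6 (-0.66, adjusted p = 0.0576). Itgae, which pairs with beta7 and reads E-cadherin, measured 1.13, 1.36, 1.41 and 2.47 CPM in ESC, 1.75, 2.01, 2.00 and 1.61 CPM in Eo-, and 0.548, 0.471, 0.576 and 0.361 CPM in Eo+. Eo+ alone stood apart, at -1.64 ± 0.26 against ESC (adjusted p = 5.56e-05) and -1.92 ± 0.25 against Eo- (adjusted p = 4.29e-05), while ESC and Eo- overlapped (0.28 ± 0.22, adjusted p = 0.276, or 0.50 with an adjusted p of 0.0227 without ESC replicate 6).

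Itgb7, the beta partner of alpha4 and alphaE, was the beta subunit with the largest change. It measured 27.4, 33.0, 16.9 and 27.0 CPM in ESC, 3.57, 4.71, 3.52 and 3.08 CPM in Eo-, and 1.62, 1.3, 1.61 and 1.58 CPM in Eo+. The 3 groups were separate, at -2.78 ± 0.22 in Eo- against ESC (adjusted p = 2.92e-07), -4.06 ± 0.26 in Eo+ against ESC (adjusted p = 1.54e-08) and -1.28 ± 0.31 between the fractions (adjusted p = 0.00386). Itgb2, the partner of the leukocyte alpha subunits alphaL and alphaM, stayed low, at 0.758 ± 0.228 CPM in ESC, 0.246 ± 0.180 CPM in Eo- and 0.282 ± 0.124 CPM in Eo+ (SD, n = 4). It was lower in Eo- (-1.88 ± 0.45, adjusted p = 0.00257) and in Eo+ (-1.48 ± 0.44, adjusted p = 0.00741) than in ESC.

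Most leukocyte genes were also lower in both fractions than in ESC. Of the 7 tested, 6 were lower in Eo+ than in ESC, 5 were lower in Eo- than in ESC (Coro1a was higher) and 3 were lower in Eo+ than in Eo-, beside 36.1%, 31.3% and 24.7% of all loci. Of 10 listed for that cell type, the 9 with a locus of their own summed to 63.9 to 83.9 CPM in ESC, 29.5 to 36.7 CPM in Eo- and 13.3 to 19.0 CPM in Eo+. The pan-leukocyte gene Ptprc (CD45) stood at 0.276, 0.0409 and 0.00957 CPM on average in these groups, and the basophil protease Mcpt8 at 3.21, 0.00164 and 0 CPM. Fcer1g could not be read, since its locus also held another gene. The part of these genes' cells in the values of Itgal, Itgam, Itgae, Itgb2 and Itgb7 was not tested.

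The beta5 subunit, which pairs with alphav and reads vitronectin, rose stepwise from ESC to Eo- to Eo+. Itgb5 measured 33.0, 34.8, 39.0 and 30.5 CPM in ESC, 58.1, 65.2, 63.2 and 65.9 CPM in Eo-, and 92.6, 99.8, 92.9 and 102 CPM in Eo+, with no overlap between groups. The change was 0.88 ± 0.08 in Eo- (adjusted p = 8.21e-07) and 1.5 ± 0.08 in Eo+ (adjusted p = 2.35e-09) against ESC, and 0.62 ± 0.07 between the fractions (adjusted p = 1.95e-05). Itgb8, another alphav partner and an activator of latent TGF-beta, measured 1.178, 0.901, 2.47 and 0.758 CPM in ESC, 5.24, 2.49, 3.38 and 3.72 CPM in Eo-, and 2.54, 2.81, 4.73 and 2.87 CPM in Eo+. All day 3 libraries lay above all ESC libraries, the lowest of them by little, with a rise of 1.59 ± 0.34 in Eo- (adjusted p = 0.00107) and 1.39 ± 0.34 in Eo+ (adjusted p = 0.00245). The fractions differed by -0.20 ± 0.30 (adjusted p = 0.61).

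Itgb1, the common beta subunit, was the most abundant integrin transcript per length and differed mainly between the fractions. Its mean was 267 ± 56.9 CPM in ESC, 208 ± 7.91 CPM in Eo- and 319 ± 22.6 CPM in Eo+ (SD, n = 4). Eo+ was higher than Eo- by 0.62 ± 0.12 (adjusted p = 0.000654), and no library of one fraction reached the other. Against ESC the value was 0.27 ± 0.11 in Eo+ (adjusted p = 0.0457) and -0.34 ± 0.12 in Eo- (adjusted p = 0.0191), with ESC libraries overlapping both fractions. The first of these calls was lost in 15 of 21 alternatives (adjusted p 0.0013 to 0.155), among them all 8 that left out a single day 3 library and those without ESC replicate 2 or 6, the second in 2 of 21, with library totals as the scale and without ESC replicate 1 (adjusted p at most 0.0632).

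Itga2b and Itgb3 form the fibrinogen receptor of megakaryocytes and platelets, which also marks early blood progenitors, and both were set apart by replicate 1. Itga2b measured 1.19, 1.36, 1.06 and 2.32 CPM in ESC, 19.7, 3.06, 1.59 and 2.97 CPM in Eo-, and 12.2, 1.79, 2.82 and 2.96 CPM in Eo+. Itgb3 measured 4.19, 3.96, 4.19 and 3.04 CPM in ESC, 10.1, 1.70, 0.977 and 1.53 CPM in Eo-, and 2.74, 0.260, 0.631 and 0.590 CPM in Eo+. In both fractions replicate 1 was thus the highest library for both genes.

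With all libraries, Itga2b differed from ESC by 1.58 ± 0.77 in Eo- (adjusted p = 0.0892) and by 1.40 ± 0.79 in Eo+ (adjusted p = 0.124). Without replicate 1 of both fractions the values were 0.80 ± 0.31 (adjusted p = 0.0428) and 0.81 ± 0.32 (adjusted p = 0.0379). That setting was chosen after the values of Itga2b and Itgb3 in these libraries were seen. Its p-values for both genes are therefore descriptions and not tests on a par with those from all libraries. Over all alternatives, 5 of 21 called Itga2b in Eo- against ESC (adjusted p 0.00408 to 0.256, among them that without Eo- replicate 5) and 4 of 21 in Eo+ against ESC (adjusted p 0.00874 to 0.353, among them that without Eo- replicate 1). Itgb3 fell in Eo+ against ESC, by 2.40 ± 0.71 on the log2 scale (adjusted p = 0.00751), or by 3.08 ± 0.32 (adjusted p = 3.43e-06) without both libraries. Eo- gave -0.74 ± 0.61 (adjusted p = 0.304), or -1.49 ± 0.26 (adjusted p = 0.000434) without both libraries. Between the fractions Itgb3 differed by -1.66 ± 0.73 (adjusted p = 0.0777), and by -1.71 ± 0.21 with the replicate number as a block in the 8 day 3 libraries (adjusted p = 0.00041). The same difference was -2.06 without Eo- replicate 5 (adjusted p = 0.0403), -2.34 without Eo+ replicate 1 (adjusted p = 0.0247) and -0.92 without Eo- replicate 1 (adjusted p = 0.186).

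Blood and endothelial genes also had their highest summed level of each fraction in replicate 1. The 10 genes of that list summed to 287 CPM in Eo- replicate 1 and to 39.9 to 72.8 CPM in the other Eo- libraries. In Eo+ they summed to 538 CPM in replicate 1 and to 140 to 489 CPM in the others. The embryonic globin Hbb-bh1 measured 73.4 CPM in Eo- replicate 1 and 7.40 CPM in Eo+ replicate 1, against at most 2.63 CPM in any other library, and the erythroid and megakaryocyte factor Gata1 measured 7.64 and 7.11 CPM there against at most 3.53 CPM. Their part in the Itga2b and Itgb3 values was not tested.

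**Figure D3:**
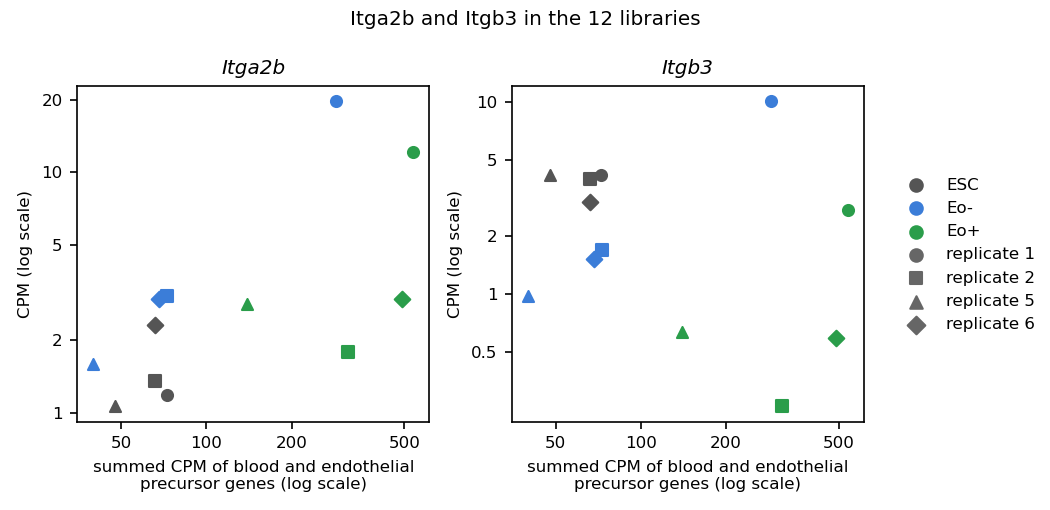
CPM of Itga2b (left) and Itgb3 (right) against the summed CPM of 10 blood and endothelial precursor genes in the 12 libraries, both axes on a log scale, with colour for the group and marker shape for the replicate number. The replicate 1 libraries of Eo- (19.7 and 10.1 CPM) and Eo+ (12.2 and 2.74 CPM) lie above the other libraries of their groups.

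Among the laminin alpha chains, Lama1 was lower in Eo- than in both other groups. This chain of the earliest embryonic basement membranes measured 40.4, 36.3, 22.1 and 30.6 CPM in ESC, 10.4, 8.16, 5.81 and 7.59 CPM in Eo-, and 24.0, 27.2, 16.8 and 33.5 CPM in Eo+. The Eo- libraries lay wholly below the others, and ESC and Eo+ overlapped. The log2 fold change was -2.01 ± 0.26 in Eo- against ESC (adjusted p = 1.7e-05), 1.64 ± 0.26 in Eo+ against Eo- (adjusted p = 0.000215) and -0.37 ± 0.21 in Eo+ against ESC (adjusted p = 0.135), or -0.54 without ESC replicate 5 (adjusted p = 0.024). With the replicate number as a block over all 12 libraries, Lama1 was also called in Eo+ against ESC (adjusted p = 0.0179).

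Lama4, the alpha chain of vessel walls and mesenchyme, rose in Eo+. It measured 2.47, 1.98, 2.2 and 2.33 CPM in ESC, 6.10, 3.10, 2.06 and 3.17 CPM in Eo-, and 16.6, 4.98, 6.09 and 8.07 CPM in Eo+. All Eo+ libraries lay above ESC, and the highest Eo- library lay within the Eo+ range. Replicate 1 was the highest library in both fractions, as it was for the blood and endothelial genes and for the extraembryonic endoderm genes. These 11 endoderm genes summed to 166, 28.4, 97.8 and 53.6 CPM in Eo+, 46.0 CPM in Eo- replicate 1 and at most 20.8 CPM in the other Eo- libraries, and 18.0 to 33.2 CPM in ESC, and their part in the laminin values was not tested. Eo+ was higher by 1.84 ± 0.39 than ESC (adjusted p = 0.000708) and by 1.25 ± 0.36 than Eo- (adjusted p = 0.0119), and Eo- against ESC gave 0.59 ± 0.42 (adjusted p = 0.239). With the replicate number as a block over all 12 libraries, Lama4 was called in Eo- against ESC (adjusted p = 0.0251).

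Lama3 and Lama5, the epithelial alpha chains, were both lowest in Eo+ on average. Lama3 measured 3.69, 3.23, 3.20 and 4.76 CPM in ESC, 1.95, 2.05, 1.94 and 1.89 CPM in Eo-, and 0.814, 0.683, 0.879 and 0.473 CPM in Eo+. The 3 groups did not overlap, at -0.90 ± 0.17 in Eo- against ESC (adjusted p = 5e-04), -2.39 ± 0.20 in Eo+ against ESC (adjusted p = 1.54e-07) and -1.49 ± 0.21 in Eo+ against Eo- (adjusted p = 7.62e-05). Lama5 averaged 183 ± 17.1 CPM in ESC, 177 ± 14.7 CPM in Eo- and 116 ± 28.9 CPM in Eo+ (SD, n = 4). It was lower in Eo+ by 0.68 ± 0.13 than in ESC (adjusted p = 0.000337) and by 0.63 ± 0.13 than in Eo- (adjusted p = 0.00141) on the log2 scale. Eo+ lay wholly below ESC, and Eo+ replicate 5, at 159 CPM, reached the Eo- range. The Lama5 locus also holds the microRNA gene Mir7005.

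Lamc1 fell in both fractions. Lamc1, the gamma chain of most laminins, measured 208, 198, 178 and 227 CPM in ESC, 135, 118, 110 and 120 CPM in Eo-, and 99.4, 89.7, 113 and 88.6 CPM in Eo+. Both fractions lay below ESC, by 0.74 ± 0.09 in Eo- (adjusted p = 1.4e-05) and 1.05 ± 0.10 in Eo+ (adjusted p = 3.18e-07) on the log2 scale. The fractions overlapped, and their difference of -0.31 ± 0.10 (adjusted p = 0.0189) was not called without Eo- replicate 1, Eo+ replicate 2 or Eo+ replicate 6 in turn (adjusted p 0.0566 to 0.0603) or without replicate 1 of both fractions (adjusted p = 0.0808).

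Of the 3 beta chains, Lamb1 alone passed the test, higher in Eo+ than in ESC and than in Eo- (33.3% of these chains, beside 35.8% and 23% of all loci). Lamb1, the beta chain of the common laminins, averaged 108 ± 14.8 CPM in ESC, 124 ± 14.0 CPM in Eo- and 156 ± 14.4 CPM in Eo+ (SD, n = 4). Eo+ was higher than ESC by 0.53 ± 0.11 (adjusted p = 0.000501) and than Eo- by 0.33 ± 0.11 (adjusted p = 0.0209), a call that 4 of 22 alternatives lost (library totals as the scale, and without Eo- replicate 5, Eo+ replicate 1 or Eo+ replicate 5, adjusted p at most 0.0692). Eo+ lay wholly above ESC and overlapped Eo-. Lamb2 (21.8, 19.1 and 21.4 CPM on average in ESC, Eo- and Eo+) and Lamb3 (2.15, 1.58 and 2.39 CPM) passed in no comparison, though Lamb3 was called between the fractions without Eo+ replicate 2 (adjusted p = 0.0247). Lamb3, which joins Lama3 in an epithelial laminin, gave 0.07 ± 0.27 in Eo+ against ESC (adjusted p = 0.839), where Lama3 gave -2.39.

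**Figure D4:**
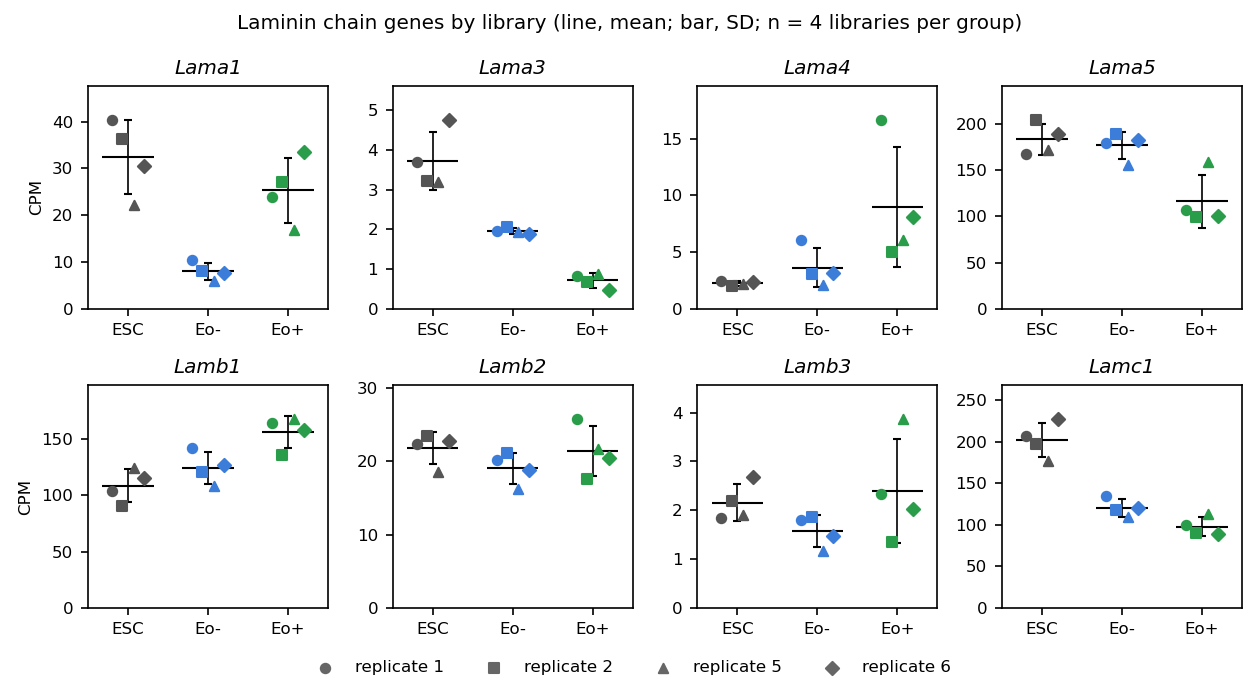
CPM of 8 laminin chain genes in each of the 12 libraries, on axes that start at 0, with the mean (line) and SD (bar) of the 4 libraries in a group and a marker shape for each replicate number. Lama3 steps down from ESC to Eo- to Eo+ without overlap, Lama1 is lowest in the 4 Eo- libraries, and Lama4 is highest in Eo+ replicate 1.

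Per length, Itga5 took a larger share of the integrin alpha transcripts in Eo+ and Itga3 a smaller one. Itga5 made up 36.4 ± 2.62% (SD, n = 4) of the summed integrin alpha FPKM in ESC, 28.1 ± 3.15% in Eo- and 55.0 ± 4.80% in Eo+, while Itga3 made up 24.9 ± 6.41%, 22.5 ± 6.46% and 7.18 ± 3.48%. Itga6 made up 12.8 ± 2.70%, 18.1 ± 3.37% and 8.05 ± 2.09%. The share of Itga5 in the 4 Eo+ libraries (49.6% to 59.6%) lay above all others, the shares of Itga5 and Itga3 overlapped in Eo-, and the shares of Itga3 did not overlap between Eo+ (4.08% to 12.2%) and ESC (15.8% to 30.8%). The summed alpha FPKM was 47.9 ± 5.43 in ESC, 34.3 ± 2.71 in Eo- and 50.4 ± 5.71 in Eo+.

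Itgb1 held 69.7 ± 6.10%, 69.3 ± 0.949% and 71.8 ± 1.65% of the summed beta FPKM in ESC, Eo- and Eo+. The second highest mean share was that of Itgb7 in ESC, with 16.1 ± 5.29% and with Itgb5 above it in replicate 5, and that of Itgb5 in both fractions. Itgb5 had 10.9 ± 0.672% in ESC, 25.4 ± 1.86% in Eo- and 26.3 ± 1.97% in Eo+. Of the laminin alpha chains, Lama5 held 76.1 ± 4.32% in ESC, 90.1 ± 1.93% in Eo- and 68.8 ± 9.01% in Eo+, and Lama1 held 20.4 ± 4.22%, 6.17 ± 1.07% and 23.7 ± 8%. Lamb1 held 71.0 ± 4.54%, 76.8 ± 1.69% and 78.3 ± 1.60% of the beta chains. These shares and sums are descriptions, with no test.

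**Figure D5:**
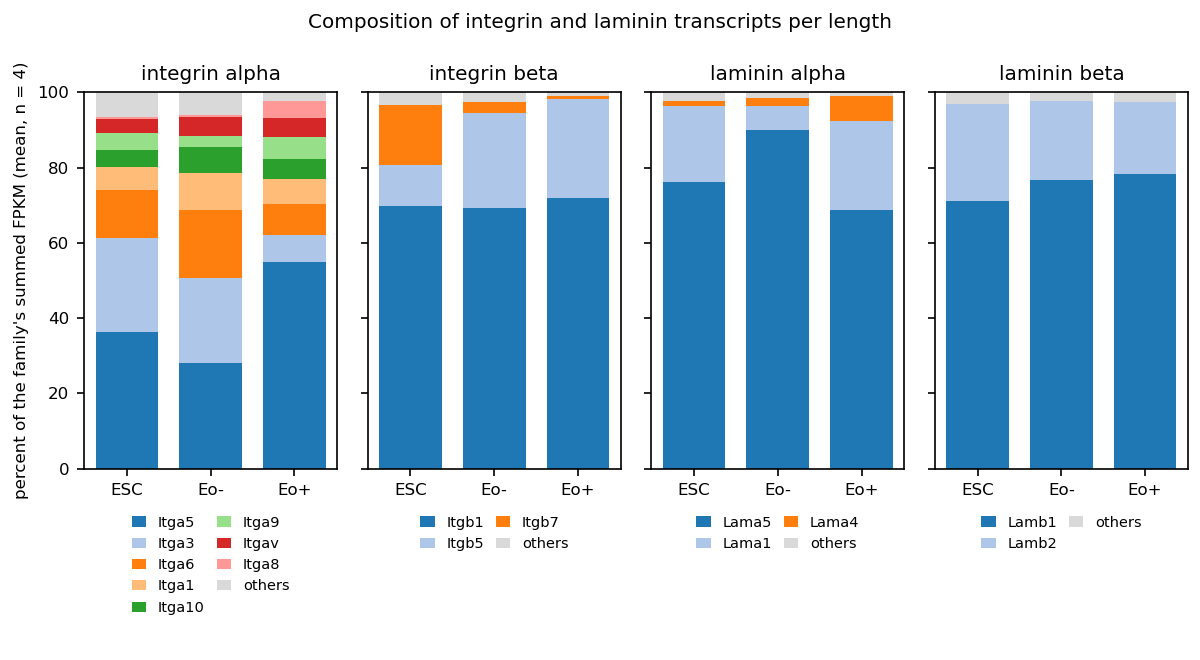
Mean percent of the summed FPKM of the integrin alpha, integrin beta, laminin alpha and laminin beta families that each gene held in ESC, Eo- and Eo+ (4 libraries per group), as bars from 0 to 100%, with genes under 4% in every group pooled as others. Itga5 covers 55.0% of the alpha bar in Eo+, Itgb5 about as much of the beta bar in Eo- as in Eo+, and Lama5 90.1% of the alpha laminin bar in Eo-; Itga1 and Itga10 include counts of the genes joined to them.

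The 6 members below the filter stayed near or under 1 CPM. Lama2, the alpha chain of muscle basement membrane, averaged 0.670 CPM in ESC, 0.253 CPM in Eo- and 0.565 CPM in Eo+, Lamc3 0.161, 0.208 and 0.211 CPM, and Itga2, the platelet collagen receptor, 0.174, 0.234 and 0.0946 CPM. Itgb6, an epithelial alphav partner, had 6 to 85 counts in an ESC library and at most 8 in any day 3 library. Itgad and Itgax had at most 10 and 47 counts in a library, with the floor at 3 counts.

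Among the other basement membrane genes, collagen IV chains and Frem1 rose in Eo+ against ESC, and the nidogens fell. Of 14 partners of laminin, 11 passed in Eo+ against ESC (6 higher, 5 lower), 9 in Eo- against ESC (6 higher, 3 lower) and 11 in Eo+ against Eo- (6 higher, 5 lower). These are 78.6%, 64.3% and 78.6% of the list, beside 71.9%, 62.2% and 47.7% of all loci. Their median log2 fold changes were 0.24, 0.18 and 0.32 in this order, where all loci gave 0.00, 0.02 and -0.01. Collagen IV chains rose in Eo+: Col4a1 averaged 31.4 ± 8, 51.8 ± 17.9 and 163 ± 49.1 CPM in ESC, Eo- and Eo+ (2.35 ± 0.25 against ESC, adjusted p = 1.28e-06, and 1.66 ± 0.23 against Eo-, adjusted p = 6.91e-05). Col4a2, its partner chain, rose by 1.62 ± 0.29 between the fractions (adjusted p = 0.000541), and Col4a6 rose in Eo+ by 4.20 ± 0.31 (adjusted p = 4.33e-08) and in Eo- by 2.89 ± 0.32 (adjusted p = 4.8e-06) against ESC. Of the 11 extraembryonic endoderm genes, 7 were higher and 2 lower in Eo+ than in ESC. These are 63.6% and 18.2%, beside 35.8% and 36.1% of all loci, and their part in the collagen IV values was not tested. Frem1 and Fras1, which form an embryonic basement membrane complex, rose against ESC as well, Frem1 from 0.398 to 3.01 CPM in Eo- (3.01 ± 0.51, adjusted p = 0.000176) and 8.80 CPM in Eo+ (4.46 ± 0.48, adjusted p = 1.7e-06), and Fras1 from 3.19 to 11.5 and 8.27 CPM (1.85 ± 0.17 in Eo-, adjusted p = 7.8e-07).

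The nidogens, which bridge laminin and collagen IV, fell with the gamma1 chain. Nid1 averaged 81.8 ± 18.7, 14.1 ± 6.48 and 22.7 ± 9.46 CPM in ESC, Eo- and Eo+ (-2.60 ± 0.28 in Eo-, adjusted p = 3.68e-06, and -1.90 ± 0.26 in Eo+, adjusted p = 1.57e-05), and Nid2 284, 157 and 110 CPM (-0.85 ± 0.08, adjusted p = 1.68e-06, and -1.37 ± 0.09, adjusted p = 1.21e-08). Perlecan (Hspg2) stood at 127, 63.3 and 65.7 CPM and fell in both fractions (-1.01 ± 0.11 in Eo-, adjusted p = 4.73e-06). Col18a1 fell in Eo+, from 350 ± 53.7 CPM in ESC and 275 ± 31.0 CPM in Eo- to 70.6 ± 25.1 CPM (-2.36 ± 0.20 against ESC, adjusted p = 1.72e-07, and -2.03 ± 0.20 against Eo-, adjusted p = 4.75e-06). Npnt, the nephronectin ligand of alpha8beta1, was lower in Eo+ than in Eo- by 1.11 ± 0.25 on the log2 scale (adjusted p = 0.00262), and Frem2 by 0.63 ± 0.17 (adjusted p = 0.00641), while Itga8 was higher.

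Among 11 other integrin ligands, 10 were tested and Edil3 was below the filter. In Eo+ against ESC 8 passed (4 higher, 4 lower), in Eo- against ESC 8 (2 higher, 6 lower) and in Eo+ against Eo- 6 (4 higher, 2 lower), with medians of 0.03, -0.73 and 0.79. These are 80%, 80% and 60% of those tested, beside 71.9%, 62.2% and 47.7% of all loci. Fibronectin (Fn1), the ligand of alpha5beta1, averaged 759 ± 200 CPM in ESC, 466 ± 177 CPM in Eo- and 2026 ± 707 CPM in Eo+. Its log2 fold change was 1.36 ± 0.29 in Eo+ (adjusted p = 0.000832) and -0.75 ± 0.30 in Eo- (adjusted p = 0.0466) against ESC and 2.11 ± 0.30 between the fractions (adjusted p = 7.5e-05), the same directions as those of Itga5. Tgfb1, whose latent form is bound by alphav integrins, was 1.95 ± 0.28 higher in Eo+ than in Eo- (adjusted p = 8.46e-05) and Mfge8 1.13 ± 0.12 higher (adjusted p = 1.03e-05).

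The osteopontin gene Spp1 fell from 437 ± 75 CPM in ESC to 23.5 ± 4.77 CPM in Eo- and 1.63 ± 1.27 CPM in Eo+ (-8.37 ± 0.38 in Eo+ against ESC, adjusted p = 8.81e-10, and -4.14 ± 0.40 between the fractions, adjusted p = 3.93e-06). Thbs1 (128, 4.24 and 4.90 CPM), Tnc (50, 0.774 and 5.69 CPM) and Vcam1 (1.32, 0.0617 and 0.0401 CPM) fell in both fractions, as did most fibroblast genes, whose part in these values was not tested. The joined locus of Adam15 and Dcst1 rose by 0.41 ± 0.11 in Eo- against ESC (adjusted p = 0.0066) and was lower in Eo+ than in Eo- by 0.55 ± 0.12 (adjusted p = 0.00159).

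The cytoplasmic adhesion complex had called genes in both directions in each comparison, few of them changed by 2-fold or more. Of its 22 genes, 15 passed in Eo+ against ESC (7 higher, 8 lower), 17 in Eo- against ESC (6 higher, 11 lower) and 12 in Eo+ against Eo- (9 higher, 3 lower), or 68.2%, 77.3% and 54.5% beside 71.9%, 62.2% and 47.7% of all loci. Of these, 4, 3 and 2 changed by at least 2-fold (18.2%, 13.6% and 9.09% of the list, beside 38.1%, 28.3% and 21.1% of all loci), and the medians were 0.11, -0.22 and 0.15. Tensin 3 (Tns3) fell from 188 ± 26.5 CPM in ESC to 44.9 ± 5.49 CPM in Eo- and 37.3 ± 1.49 CPM in Eo+ (-2.06 ± 0.10, adjusted p = 6.2e-09, and -2.32 ± 0.11, adjusted p = 8.27e-10), and Tns1 and Actn4 fell in both fractions too, by 1.15 ± 0.15 (adjusted p = 1.07e-05) and 0.97 ± 0.07 (adjusted p = 2.16e-08) in Eo+ on the log2 scale. Talin 2 (Tln2) rose in Eo+ to 75.1 ± 10.6 CPM from 33.9 ± 7.18 CPM in ESC (1.17 ± 0.14, adjusted p = 4.5e-06), and Ilk and Zyx rose in both fractions, by 0.91 ± 0.10 (adjusted p = 1.78e-06) and 0.94 ± 0.20 (adjusted p = 0.000706) in Eo+. Src rose in Eo- by 0.47 ± 0.11 (adjusted p = 0.00243).

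Between the fractions, Parvb, which links the kinase complex of Ilk to actin, averaged 21.5 ± 2.95 CPM in Eo- and 63.8 ± 9.43 CPM in Eo+ (1.56 ± 0.21, adjusted p = 5.97e-05), and the actin crosslinker Actn1 136 ± 8.63 and 313 ± 47.3 CPM (1.19 ± 0.10, adjusted p = 9.55e-07). Both had been lower in Eo- than in ESC, Parvb by 1.23 ± 0.22 (adjusted p = 0.000244) and Actn1 by 0.67 ± 0.10 (adjusted p = 4.67e-05) on the log2 scale. Bcar1 was lower in Eo+ than in Eo- by 0.73 ± 0.11 (adjusted p = 0.000162), Actn4 by 0.32 ± 0.07 (adjusted p = 0.00152), and the locus that joins Fermt3 with Stip1 by 0.18 ± 0.06 (adjusted p = 0.021).

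Of 6 laminin receptors that are not integrins, 3 passed in each comparison, 1 higher and 2 lower, which is 50% beside 71.9%, 62.2% and 47.7% of all loci, with medians of -0.04, -0.01 and -0.04 in Eo+ against ESC, Eo- against ESC and Eo+ against Eo-. Bcam, the Lutheran receptor of the laminin alpha5 chain, averaged 117 ± 24.8, 59.6 ± 10.1 and 39.4 ± 7.34 CPM in ESC, Eo- and Eo+, and fell in both fractions (-0.96 ± 0.17, adjusted p = 0.000259, and -1.56 ± 0.18, adjusted p = 2.95e-06). Syndecan 4 (Sdc4) was lower in Eo+ than in Eo- by 1.31 ± 0.18 (adjusted p = 5.97e-05), and syndecan 1 (Sdc1) was higher in Eo- (0.67 ± 0.11, adjusted p = 0.000126) and in Eo+ (0.76 ± 0.11, adjusted p = 2.39e-05) than in ESC. The tetraspanin Cd151, a partner of the laminin-binding integrins, was lower in Eo- than in ESC by 0.35 ± 0.08 (adjusted p = 0.00252) and higher in Eo+ than in Eo- by 0.39 ± 0.08 (adjusted p = 0.00168). Dystroglycan (Dag1) averaged 67.7, 63.8 and 64.6 CPM and passed in no comparison.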

How the data were processed

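Poly(A) RNA of 12 libraries was sequenced in pairs of stranded reads. The authors mapped the reads to mm10 with STAR, assembled transcripts with Cufflinks 2.2.1 and Cuffmerge on the Ensembl annotation, and counted reads per locus with HTSeq 0.6.1 in union mode. The deposited counts are whole numbers without scaling for 80012 loci and 5 tally lines, which stayed out of library sizes and tests. Library totals were 648413022 to 837308168, above the reads per sample that the labels give, so 1 fragment may have been counted more than once, and the floor of 3 counts covers counting error only. Reads that mapped to several places (22.4% to 26.2%) and 357 loci without a position (2.01% to 2.93% of counts) were not analysed here. A deposited table of normalized values was not used here. There were 0 columns of other samples.

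CPM used library totals with TMM factors (edgeR 4.0.16), and FPKM used the summed exon length of a locus. Loci with a mean above 0.1 FPKM in at least 1 group (17911 loci of protein-coding genes and long noncoding RNAs) were fitted with voom and limma 3.58.1 in R 4.3.3, with 1 mean per group over all 12 libraries, and p-values were adjusted by Benjamini and Hochberg over all 17911 loci. The fit was tested on simulated data. A member was described by library when called at an adjusted p of 0.05 with a log2 fold change of at least 1 in size and at least 1 CPM in the higher group. From each pathway list, up to 3 called rises and 3 called falls per comparison were named under the same minimum of 1 CPM. The members and lists were chosen with earlier results of these data known.

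Replicate numbers paired the day 3 fractions: deviations from the group means of Eo- and Eo+ libraries with the same number correlated at 0.311 to 0.634 over the tested loci, while those with ESC ran from -0.125 to 0.432 and were not taken as pairs. Libraries of a group differed by more than sampling noise, so none was counted as a duplicate. Alternatives were the edgeR quasi-likelihood test, DESeq2 1.42.0, other scalings and filters, a replicate block and leaving out libraries. Promoter windows came from RefSeq (GRCm38.p6), and protein sequences were not used here. Values of 1 member are not reported here, and it stays in the counts.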

Additional observations from a re-analysis of the deposited data

Results flagged for a closer look

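Of 110 combinations of a member and a group of 4 libraries, 10 had a library far from the other 3 by Dixon's test, which chance does in about 1 of 20 groups. Of these, 6 were replicate 1 of a day 3 fraction and high: Itga2 at 0.5195 CPM in Eo- (others 0.111 to 0.168 CPM), Itga2b at 19.67 CPM in Eo- (others 1.59 to 3.06 CPM) and 12.15 CPM in Eo+ (others 1.79 to 2.96 CPM), and Itgb3 at 10.12 CPM in Eo- (others 0.977 to 1.70 CPM) and 2.74 CPM in Eo+ (others 0.260 to 0.631 CPM), and Itgav at 33.27 CPM in Eo+ (others 25.8 to 26.1 CPM). In Eo+ replicate 5, Lama5 stood at 159.5 CPM (others 99.3 to 107 CPM), Itgb8 at 4.732 CPM (others 2.54 to 2.87 CPM) and Itgax at 0.008435 CPM, which is 6 counts. Itgb7 was low in Eo+ replicate 2, at 1.3 CPM (others 1.58 to 1.62 CPM).

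Itga5 and Itgb1 passed the test in opposite directions in the fractions. Itga5 was at -0.85 in Eo- and 0.67 in Eo+ against ESC, and the fractions differed by 1.52 in a test of their own. Itgb1 was at -0.34 and 0.27, and the fractions differed by 0.62; its call in Eo+ against ESC was lost in 15 of 21 alternatives.

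Loci that overlap members on either strand were left out of the tests. A pair of them each lay above every ESC library in at least 1 fraction, and the others did not. A spliced locus antisense to Itgae (XLOC_012683, minus strand) averaged 0.2691 CPM in Eo+ and 0.0537 CPM in ESC, while Itgae was lowest in Eo+. A locus over Itgad on its own strand (XLOC_063128) averaged 0.1722 CPM in Eo- and 0.0672 CPM in ESC, and its Eo+ libraries overlapped ESC. Neither difference was tested.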

How the results depend on the processing

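For the 20 members with a called change of at least 2-fold whose higher group averaged 1 CPM or more, 1249 alternative values kept direction and side of the threshold, 22 were newly called, 5 were no longer called and 1 had another sign, Itgb8 between the fractions without both day 3 replicate 1 libraries (0.094, adjusted p = 0.842, chosen after seeing the data). Library totals or DESeq2 size factors moved the median locus by at most 0.072 on the log2 scale. The replicate block called 5 members higher in Eo- against ESC in place of 3 and changed no other count of members by over 1.5 times. Over all 12 libraries the block changed, between the paired fractions, the call of Itgb3 alone (-1.71, adjusted p = 0.0178), and with the day 3 libraries alone, a setting chosen after seeing the data, also that of Itga7. Against ESC, where the numbers were not taken as pairs, the block also called Itga9 (0.46, adjusted p = 0.00566), Lama1 (-0.38, adjusted p = 0.0179), Itga10 and Itga2b in Eo+, and Itga3, Lama4 (0.65, adjusted p = 0.0251) and Itga2b in Eo-. Without both day 3 replicate 1 libraries, 24, 19 and 19 members were called in Eo+ against ESC, Eo- against ESC and Eo+ against Eo-, beside 69.1%, 59.5% and 41.3% of all loci.

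A 2-fold minimum beside the adjusted p, which by construction removes calls, left 5 members higher in Eo+ against ESC. It left 11 members in Eo- against ESC, of which 9 lower, and 12 in Eo+ against Eo-, of which 5 higher. For the adhesion complex it left 4, 3 and 2 genes in Eo+ against ESC, Eo- against ESC and Eo+ against Eo-, for the basement membrane partners 5 in Eo- against ESC and 7 in Eo+ against Eo-, for the other ligands 5 in Eo- against ESC, and for the laminin receptors 0 in Eo- against ESC and 1 in Eo+ against Eo-. With the longest transcript as length, the share of Itga5 was 30.5%, 22.5% and 47.8% in ESC, Eo- and Eo+.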
